A study of Mus musculus with 2 samples.

Results

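The genes described here are 28 voltage-gated ion channel genes, read in single-nucleus chromatin accessibility data (scATAC-seq) from the mouse brain 48 h after stroke. They were taken by name, as 28 of the 21911 protein-coding genes of the annotation, with no threshold on a measured value. The list was chosen with earlier results of these data known, so its comparisons with all genes are a description. The list holds 6 sodium channel genes, 8 calcium channel genes, 13 potassium channel genes and Hcn2. Nuclei came from WT, young adult male C57BL/6J mice, either after a sham operation or after middle cerebral artery occlusion and reperfusion (MCAO/R), both harvested at 48 h without olfactory bulbs and cerebellum. The sham library was made from 4 pooled brains and the stroke library from the ipsilateral hemispheres of 4 pooled brains. Each condition was therefore 1 library, so no value below has a replicate and no test between sham and stroke was possible.

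Voltage-gated channels open and close as the membrane potential changes. Sodium channels carry the upstroke of the action potential, calcium channels couple depolarisation to transmitter release and gene expression, and potassium channels repolarise the membrane and set the firing rate. Each is built around pore-forming subunits, and auxiliary subunits can change its gating and its place in the membrane. Neurons are best known for these genes, but glia and vascular cells also use some of them, and failure of ion gradients is an early event in ischemia.

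The Tn5 transposase of this assay cuts DNA where chromatin is open, and each sequenced fragment carries the barcode of its nucleus. For every gene the fragments over the gene body plus the 2 kb before it were counted and are given per 1000000 of the group's fragments (CPM). This measures opening of the locus and not RNA. Of 6979 sham and 8740 stroke barcodes called as cells, 6817 (97.7%) and 5054 (57.8%) had over 20% of their fragments in peaks and were kept. They held 73449269 and 52773775 fragments, a median of 10353 and 9898 per nucleus, and the median percent of fragments in peaks was 38.8 in sham and 33.2 in stroke. The libraries shared 42 cell barcodes by sequence. Intervals in brackets are exact 95% Poisson or binomial intervals, and they cover counting error only.

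Nuclei were first put into classes one at a time, by a gate on marker genes. It gave a class to 1303 sham (19.1%) and 1067 stroke nuclei (21.1%). On marker genes that it did not use, its sham ratios over the rest ran from 1.21 in oligodendrocyte precursor-like to 4.22 in astrocyte-like nuclei. Sham glutamatergic-like nuclei stood at 1.47, GABAergic-like ones at 2.06 and myeloid-like ones at 1.31. In stroke the gate had 1.81 for glutamatergic-like, 1.8 for GABAergic-like, 3.89 for astrocyte-like and 3.69 for myeloid-like nuclei. A grouping by clusters was then added after these values had been seen. Clusters were made without the DNA of the channel and marker genes, were named from the marker lists, and gave a class to 5102 sham (74.8%) and 4097 stroke nuclei (81.1%). On the same unused marker genes the sham ratios of the clusters were 1.61 for glutamatergic-like and 2.8 for GABAergic-like nuclei. They were 4.36 for astrocyte-like and 2.99 for myeloid-like nuclei. In stroke they were 1.86, 2.04, 3.45 and 3.05 in the same order. However, a cluster was named only where it was high on these genes too. The cluster ratios are therefore a description and are not comparable with those of the gate. The class values below are those of the clusters unless the gate is named.

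The 28 genes are long. Their median length was 173 kb against 17.4 kb for all protein-coding genes, from 5.99 kb for Kcna1 to 725 kb for Kcnma1, and 23 of 28 overlapped no other protein-coding gene. Per kb of counted window, the median level of the members was 0.999 CPM in sham and 0.925 in stroke, against 0.67 and 0.665 for all genes. On this scale per length the lowest member was Kcnc2, at 0.23 CPM per kb in sham, and the highest was Kcna1, at 3.02. Whether gene length has a part in the class differences below was not tested.

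The members were more open in neuron-like nuclei than in glia-like, myeloid-like and vascular-like nuclei together. In the clusters, 23 of 28 members were at least 1.5-fold higher in neurons in sham and 21 of 28 in stroke, where 16.7% and 13.2% of all genes compared passed that fold. The median log2 ratio of the members was 0.95 in sham and 0.92 in stroke, against -0.05 and -0.06 for all genes. The classes set against neurons were mixed differently in the libraries. Of their fragments, astrocyte-like nuclei held 2688568 in sham and 5223949 in stroke, and myeloid-like ones 520522 and 5726053. The neuron ratios of sham and stroke therefore have unlike denominators, and the part of this mix in their differences was not tested. In both libraries 19 members passed the fold and 27 of 28 had an interval wholly above 1, Kcna2 being the exception. With the gate the counts were smaller, 2 of 28 in sham, where 3.26% of all genes passed, and 15 of 28 in stroke, where 9.13% did, and again 27 of 28 ratios lay above 1 in each library. The 2 in sham were Scn3a (64.1 CPM against 41.8) and Kcna4 (21 CPM against 12.5). Scaling to fragments in promoters in place of all fragments moved the median log2 ratio of all genes from -0.05 to 0.33 in sham and from -0.06 to 0.24 in stroke, and that of the members to 1.33 and 1.23. Under that scaling 33.6% of all genes were at least 1.5-fold higher and 9.2% at least 1.5-fold lower in sham neurons, against 16.7% and 19.1% before, and in stroke the shares were 26% and 10.1% against 13.2% and 18.1%.

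**Figure D1:**
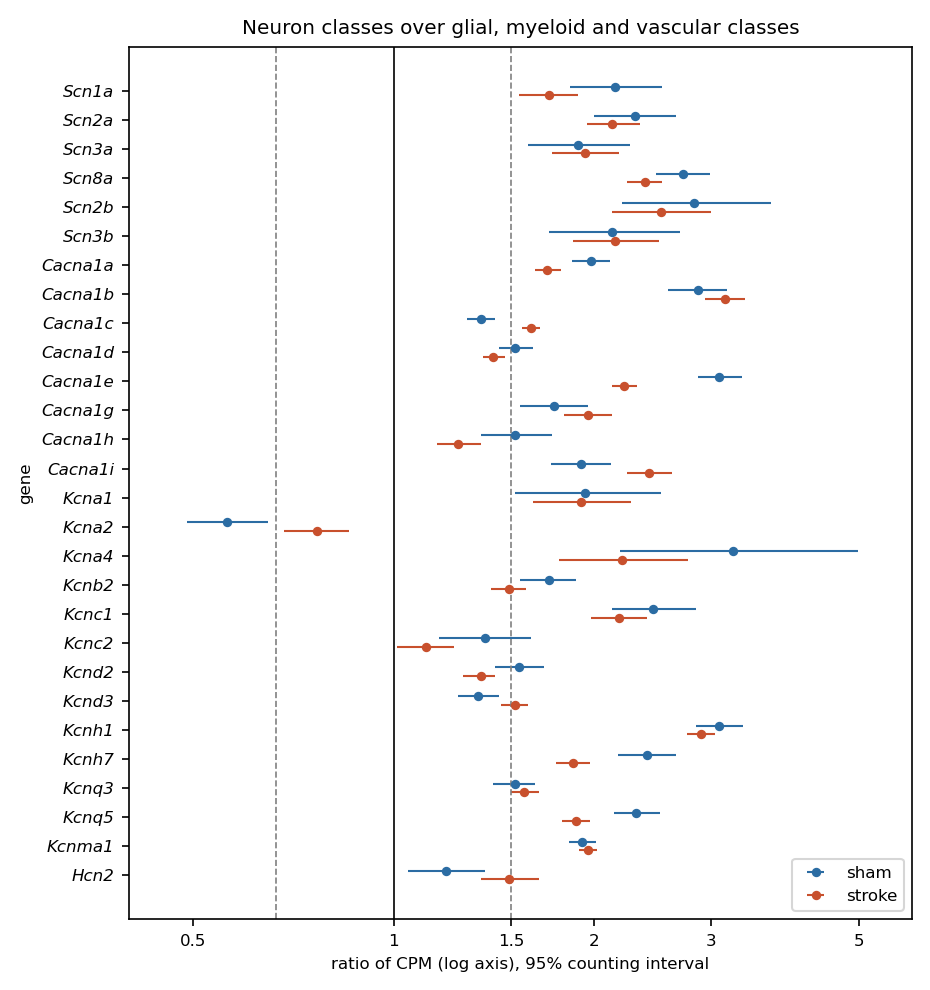
Ratio of the level (CPM) of each member in neuron-like clusters over glia-like, myeloid-like and vascular-like clusters, on a log axis, for sham (blue) and stroke (orange), with 95% counting intervals; the dashed lines mark 1.5-fold either way. Of the 28 genes, 27 lie to the right of 1 in both libraries and Kcna2 lies to the left of it, at 0.562 in sham and 0.766 in stroke.

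All 6 sodium channel genes passed the fold in both libraries. Scn8a, the pore subunit Nav1.6 of the axon initial segment and nodes, was at 259 CPM in sham neurons against 95.4 in the other classes, a ratio of 2.72 [2.48 to 2.98]. In stroke it was at 218 against 91.4 CPM, a ratio of 2.38 [2.24 to 2.53]. Scn2a, which encodes Nav1.2, was at 97 against 42.3 CPM in sham and 86.6 against 40.6 in stroke. Scn1a, the Nav1.1 gene mutated in Dravet syndrome, had ratios of 2.15 and 1.71, and Scn3a, an embryonic-type pore gene, 1.89 and 1.94. The beta subunit genes had a like difference. Scn2b was at 36.5 against 12.9 CPM in sham and 29.6 against 11.7 in stroke (ratios of 2.82 and 2.52), and Scn3b had ratios of 2.13 and 2.15.

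Among the 5 pore genes of the high-voltage-activated calcium channels, 4 passed the fold in each library, though not the same 4. Cacna1b, the N-type pore gene of presynaptic terminals, was at 225 CPM in sham neurons against 78.6 elsewhere (2.86 [2.58 to 3.17]) and at 209 against 66.6 in stroke (3.14 [2.93 to 3.37]). Cacna1e, the R-type gene, was at 436 CPM in sham neurons against 141 in the other classes (3.08 [2.86 to 3.33]) and at 400 against 180 in stroke (2.22 [2.13 to 2.32]). Cacna1a, the P/Q-type gene, was at 377 against 191 CPM and at 329 against 193. The L-type genes stood nearest to the other classes. Cacna1c, which also drives vascular smooth muscle, had ratios of 1.35 and 1.61, and Cacna1d had 1.52 and 1.41. All 3 T-type genes, which carry low-voltage-activated bursts, passed the fold in sham and Cacna1g (1.74 and 1.96) and Cacna1i (1.91 and 2.42) did so in stroke as well. Cacna1h had 1.52 and 1.25.

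The potassium channel genes differed more among themselves. Kcna4, the A-type Kv1.4 gene, had the highest sham ratio, 17 CPM in neurons against 5.26, with only 26 fragments outside neurons (3.23 [2.19 to 4.97]), and 15.3 against 6.93 CPM in stroke (2.2 [1.77 to 2.77]). In sham vascular-like nuclei Kcna4 had 0 of 451373 fragments, and taking 3 fragments as the limit that a count of 0 allows gives up to 6.65 CPM. Kcnh1, the ether-a-go-go gene Kv10.1, was at 397 against 129 CPM in sham and 394 against 136 in stroke (ratios of 3.08 and 2.89). Kcnh7, an ERG-type gene, had 2.4 and 1.86, and Kcnc1, the Kv3.1 gene of fast repolarisation, 2.45 and 2.18. Of the M-current genes, which restrain repetitive firing, Kcnq5 had 2.31 and 1.88, and Kcnq3 had 1.52 and 1.57. Kcnma1, the BK channel opened by calcium and voltage together, was the member with most fragments, at 696 against 363 CPM in sham and 628 against 321 in stroke. Kcna1 had ratios of 1.94 and 1.91 and Kcnb2 1.71 and 1.49, and the Kv4 genes of somatodendritic A-type current had 1.54 and 1.35 (Kcnd2) and 1.34 and 1.52 (Kcnd3).

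Kcna2 was the member with a neuron ratio below 1 in both libraries. Kcna2 encodes Kv1.2, a channel of axons. It was at 27.2 CPM in sham neurons against 48.3 in the other classes (0.562 [0.49 to 0.648]) and at 27.6 against 36.1 in stroke (0.766 [0.685 to 0.857]). Its highest level was in astrocyte-like nuclei, 59.5 CPM in sham and 56.7 in stroke, against 27.5 and 26.8 over the other 6 classes, so that the ratios were 2.16 [1.83 to 2.55] and 2.11 [1.85 to 2.41]. Sham oligodendrocyte-like nuclei were at 42.3 CPM [26.8 to 63.5], an interval that holds the astrocyte-like value. The ratios over the other classes were 1.54 and 1.14 in OPC-like (oligodendrocyte precursor-like) nuclei and 1.47 and 0.878 in oligodendrocyte-like ones. Of all genes compared, 18.8% were at least 1.5-fold higher in sham astrocyte-like nuclei and 15.1% in stroke. The stroke astrocyte-like nuclei came mainly from a cluster led by Sdc4, Vim and Gfap, which held 378 of them and 12 from sham, and most sham ones from another cluster, which held 170 and 147 from stroke.

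Kcnc2 (1.37 [1.17 to 1.61] in sham and 1.12 [1.01 to 1.23] in stroke) and Hcn2 (1.2 [1.05 to 1.37] and 1.49 [1.35 to 1.65]) had low neuron ratios. Hcn2, a channel of the hyperpolarisation-activated current, was highest in oligodendrocyte-like nuclei, at 99.3 CPM in sham and 84 in stroke against 56.5 and 47.4 elsewhere. These ratios of 1.76 [1.32 to 2.3] and 1.77 [1.41 to 2.2] rest on 54 and 85 fragments, and 20.1% and 14.9% of all genes were at least 1.5-fold higher in that class. Kcnd3 was higher in oligodendrocyte precursor-like (OPC-like) nuclei, at 310 CPM in sham (1.5 [1.31 to 1.71]) and 253 in stroke (1.23 [1.08 to 1.38]), where 19.8% and 13.9% of all genes were at least 1.5-fold higher. In myeloid-like nuclei no member had a ratio above 1 in both libraries, and Kcnc2, at 0.965 in sham and 1.1 in stroke, was the highest by the smaller of its ratios. In vascular-like nuclei this was Cacna1g, at 1 and 0.85. In stroke alone Scn2b was past the fold there, at 36.3 CPM from 39 fragments against 23.6 in the other classes (1.54 [1.09 to 2.12]), where 22.5% of all genes were, while in sham it was at 13.3 CPM from 6 fragments against 34.7.

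**Figure D2:**
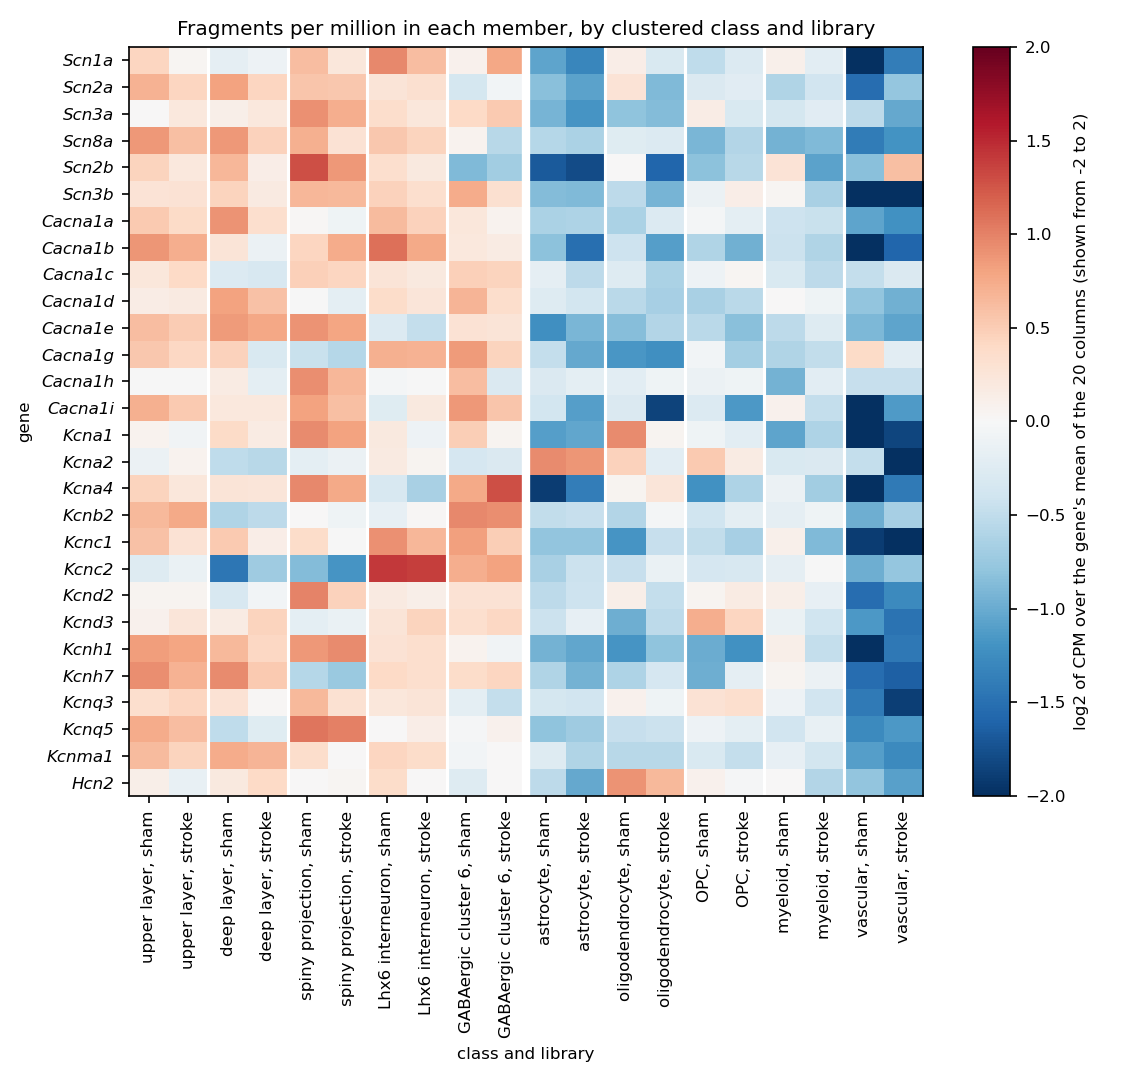
Level of each member in every class and library, as log2 of its CPM over the mean of that gene's 20 columns, with levels under 1 CPM drawn at 1 CPM and colours limited to -2 to 2. The neuron columns on the left are red for most genes and the vascular columns on the right blue, while Kcna2 is reddest in the astrocyte columns, Hcn2 in the oligodendrocyte columns and Kcnc2 in the Lhx6 interneuron columns.

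Some channel loci differed between the neuron subclasses. In upper-layer-like, deep-layer-like and Lhx6 interneuron-like nuclei the members higher by the fold were, by share, near or below all genes. The members lower by the fold in these subclasses lay on both sides of the share of all genes. The counts are given below. In interneuron-like nuclei of the Lhx6 lineage, which includes the parvalbumin and somatostatin cells, Kcnc2 was at 127.5 CPM in sham and 125 in stroke, against 35.2 and 38.3 in the other neuron subclasses. The ratios were 3.63 [3.3 to 3.98] and 3.26 [2.87 to 3.69]. Kcnc2 encodes Kv3.2, one of the channels of fast spiking, and it was also among the genes that led this cluster, although its own DNA had been left out of the clustering. It was the 1 member of 28 that was at least 1.5-fold higher in these nuclei in each library, where 11.9% and 10.6% of all genes were. Over all GABAergic-like nuclei Kcnc2 was at 63.9 CPM in both libraries, against 35.6 in sham and 38.8 in stroke over the other classes (1.8 [1.66 to 1.95] and 1.65 [1.49 to 1.82]), the highest ratio of the members in that class. It was at 79.5 and 83.4 CPM in another GABAergic-like cluster, cluster 6, led by Lgr5, Vipr2, Gng4 and Th. It was at only 26.2 and 21.1 CPM in spiny projection neuron-like nuclei and at 17.5 and 29.3 in deep-layer-like nuclei, so that levels within neurons ran from below to above the glial ones.

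Scn1a was also higher in the Lhx6 nuclei, though not past the fold, at 104 CPM in sham and 82.1 in stroke against 70.5 and 58 in the other subclasses (1.48 [1.35 to 1.62] and 1.42 [1.23 to 1.63]). In these nuclei 4 of 28 members were at least 1.5-fold lower in sham and 2 in stroke, where 10.1% and 10.4% of all genes were. Cacna1e and Kcna4 were low there in both libraries. Cacna1e was at 226 and 195 CPM against 447 and 414 (0.505 and 0.471), and Kcna4 at 9.93 and 7.94 against 18.8 and 16.9 (0.529 and 0.469).

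Spiny projection neuron-like nuclei, the main cell type of the striatum, had the most members past the fold. In spiny projection neuron-like nuclei 7 of 28 members were at least 1.5-fold higher and 3 lower in sham. In stroke 4 were higher and 4 lower. The background was 8.73% higher and 14.7% lower in sham and 9.3% and 13.2% in stroke. Cacna1h was at 134 and 111 CPM against 73 and 67.6, Scn2b at 58.1 and 43.5 against 32 and 26.6, Kcna1 at 38.3 and 35.1 against 22.6 and 19.7, and Kcnq5 at 405 and 386 against 262 and 253. These 4 genes had ratios of 1.53 to 1.83 in both libraries. Kcnd2, the Kv4.2 gene, was at 305 CPM in sham and 211 in stroke, against 156 and 159 in the other subclasses (1.95 [1.86 to 2.04] and 1.33 [1.23 to 1.43]). Kcnh7 was low there, at 85.6 and 76.4 CPM against 226 and 193 (0.378 and 0.396), and Cacna1g was at 57.9 and 52.7 against 117 and 101 (0.497 and 0.524).

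Among the 28 members Kcnh7 had the highest ratio of glutamatergic-like nuclei over the other classes, with 234 CPM in sham and 190 in stroke against 112 and 101 in the other 6 classes (2.09 [2 to 2.19] and 1.88 [1.79 to 1.98]), where 7.08% and 8.28% of all genes passed the fold. Upper-layer-like nuclei were at least 1.5-fold higher for 2 members in each library, Kcnb2 and Kcnh7, and lower for 0, where 6.62% of all genes were higher and 8.72% lower in sham and 6.24% and 7.66% in stroke. Kcnb2, the Kv2.2 gene of delayed rectification, split the cortical layers. It was at 199 CPM in sham and 214 in stroke upper-layer-like nuclei and at 83.1 and 87.6 in deep-layer-like ones. The deep-layer-like nuclei were also low for Kcnq5, at 135 and 162 CPM against 318 and 299 in the other subclasses (0.425 and 0.542). They were high for Cacna1d, at 528 and 455 against 343 and 331 (1.54 [1.48 to 1.61] and 1.37 [1.3 to 1.45]). For deep-layer-like nuclei 1 member was higher and 5 lower in sham and 0 higher and 6 lower in stroke, beside 7.05% and 12.2% of all genes in sham and 6.2% and 10.7% in stroke. The upper-layer-like nuclei came from different clusters in the libraries, since one cluster held 680 sham nuclei but 47 from stroke and another held 61 and 366.

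Where in these long genes the fragments lay was read next. Over the members, a median of 5.79% of fragments in sham and 5.36% in stroke lay within 1 kb of the outermost annotated start. The share ran from 0.171% in Cacna1d to 58.9% in Kcna4 in sham, and the members with the largest shares were among the shortest genes. In Cacna1a, Cacna1c, Cacna1d, Cacna1e and Kcnma1 it was under 1% in both libraries. Kcna1, Kcna2 and Kcna4 have their coding sequence in a single exon, and 44.4%, 24.3% and 58.9% of their sham fragments were near the start.

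**Figure D3:**
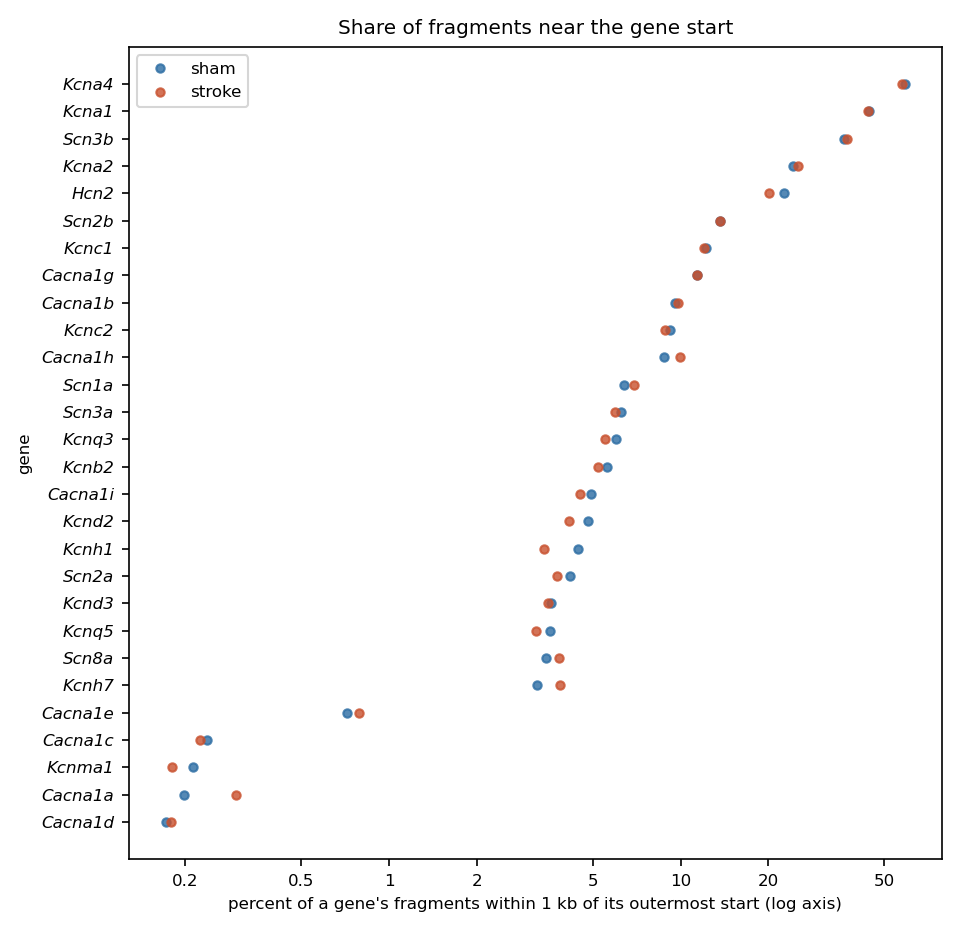
Percent of each member's fragments that lay within 1 kb of its outermost annotated start, on a log axis, in sham (blue) and stroke (orange). The genes run from Cacna1d, at 0.171% in sham, to Kcna4, at 58.9%, and 5 genes lie below 1% in both libraries.

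In the genes with low shares another annotated start was more open. Only starts of protein-coding transcripts were compared here, so the outermost of them can lie inside the gene. Of 28 members 18 have more than 1 annotated start, and in these 18 the most accessible one was the same in both libraries. Over all 28 it lay more than 1 kb inside the gene in 9, of which Cacna1a and Kcna1 have 1 start listed. In Kcnma1 the start 10.2 kb inside had 7.04 CPM in sham and 5.34 in stroke within 500 bases either side, and the outermost start 0.722 and 0.512. In Cacna1c the start 87.8 kb inside had 6.07 and 4.89 CPM and the outermost 0.776 and 0.625. In Scn2a it was the start 48 kb inside, at 8.32 and 7.01 CPM against 2.67 and 2.01. Cacna1d (138 kb inside) and Scn1a (30.8 kb) had the same order. However, in Scn1a the levels of both starts were close, at 3.28 and 2.84 CPM against 3.12 and 2.8. In Cacna1e the start 158 kb inside had 4.97 and 3.94 CPM. The outermost Cacna1e start compared, itself 20.4 kb inside the gene, had 0.0953 and 0.0189. In Cacna1a the 1 start compared lay 26.9 kb inside the gene.

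At the most accessible start alone, the median neuron ratio of the members was 1.54 in sham and 1.51 in stroke, and these values rest on few fragments and were not computed for all genes. Kcna4 had the ratios 4.22 [2.2 to 9.29] and 2.23 [1.59 to 3.2], and Cacna1b 2.41 [1.7 to 3.53] and 3.94 [2.98 to 5.29]. Kcnq3 was at 0.974 and 1.08 and Cacna1h at 1.05 and 0.968, although their whole loci were higher in neurons. Kcna2 was below 1 at its start too, at 0.383 [0.282 to 0.529] and 0.477 [0.368 to 0.617], with 13.8 CPM in sham and 14.9 in stroke astrocyte-like nuclei against 4.03 and 3.96 in glutamatergic-like ones. OPC-like nuclei had 10.8 [4.65 to 21.2] and 9.97 [4.97 to 17.8] CPM at that start, intervals that hold the astrocyte-like values. The start of Kcnc2 gave 0.476 [0.266 to 0.915] in sham and 1.23 [0.715 to 2.22] in stroke, so its direction differed between the libraries. In a wider promoter window, from 2 kb before to 500 bases after the gene start, 16 of 27 members compared passed the fold in sham and 16 of 26 in stroke, where 15.5% and 13% of all genes did. In that window Kcna2 had the ratios 0.869 [0.602 to 1.29] and 0.967 [0.737 to 1.28], whose intervals include 1, and in the gate its log2 ratio in stroke turned from -0.66 over the whole locus to 0.16.

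Promoter sequences from RefSeq (GRCm38.p6) began within 500 bases of the most accessible start in 18 of 28 members. The 250 bases before the start are shown for the gene of the Lhx6 interneurons, Kcnc2, for the oligodendrocyte-high gene Hcn2 and for the glutamatergic-high gene Kcnh7, 5′ to 3′ on the gene's strand. These names come from the whole loci. At its start Kcnc2 had 3.25 CPM in sham and 2.76 in stroke Lhx6 interneuron-like nuclei, from 17 and 8 fragments. Cluster 6 had 2.16 and 2.6 CPM there, with intervals that overlap those of the Lhx6 nuclei. Oligodendrocyte-like nuclei had 9.19 CPM at the Kcnc2 start in sham, from 5 fragments, and 0.989 in stroke. At its start Hcn2 had 9.19 CPM in sham and 6.92 in stroke oligodendrocyte-like nuclei, from 5 and 7 fragments. GABAergic-like nuclei had 8.38 and 8.97 there, and sham myeloid-like ones 13.4 from 7 fragments. At its start Kcnh7 had 4.67 and 4.89 CPM in glutamatergic-like and 3.11 and 4.48 in GABAergic-like nuclei. Capitals mark letters of the motifs searched on either strand, GGGCGG and CCAAT. The stretches lie at chr10:112270871-112271120 (plus strand), chr10:79716384-79716633 (plus strand) and chr2:63184288-63184537 (minus strand).
Kcnc2: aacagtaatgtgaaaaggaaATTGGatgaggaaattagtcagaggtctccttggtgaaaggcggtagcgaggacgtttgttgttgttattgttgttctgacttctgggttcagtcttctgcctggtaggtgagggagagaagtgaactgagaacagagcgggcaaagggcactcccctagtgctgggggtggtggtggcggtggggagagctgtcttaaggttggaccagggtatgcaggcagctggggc
Hcn2: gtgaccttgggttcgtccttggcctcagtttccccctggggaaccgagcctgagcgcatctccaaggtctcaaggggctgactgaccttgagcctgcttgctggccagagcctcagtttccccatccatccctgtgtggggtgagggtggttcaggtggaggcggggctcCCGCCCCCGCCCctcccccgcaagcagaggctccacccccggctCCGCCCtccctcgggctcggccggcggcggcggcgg
Kcnh7: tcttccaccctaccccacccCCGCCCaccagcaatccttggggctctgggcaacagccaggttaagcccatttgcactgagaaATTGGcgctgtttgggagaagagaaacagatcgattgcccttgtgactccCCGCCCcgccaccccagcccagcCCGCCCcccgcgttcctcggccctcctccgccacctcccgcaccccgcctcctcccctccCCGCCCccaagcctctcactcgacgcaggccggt
The Kcnc2 stretch has 5 CpG and 52.8% GC, that of Hcn2 has 16 and 70.4%, and that of Kcnh7 has 16 and 67.6%. Over the 18 members the median was 16.5 CpG and 66.4% GC, against 6 and 52.4% over 32817 RefSeq promoters of this length. GGGCGG, the letters bound by Sp1-type factors, was in 10 of 18 members and in 32.7% of all promoters. CCAAT was in 4 of 18 and 33.8%, TATAAA in 1 of 18 and 12.4%, GGACAGC in 1 of 18 and 5.28%, and TGACGTCA, TGANTCA and TCAGCACC were in 0 of 18 against 1.55%, 6.75% and 1.33%. TCAGCACC and GGACAGC are the outer parts of RE1, the site of the neuronal repressor REST. None of the searched motifs contains another, and a match is a description and not a site.

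Away from the starts, single stretches inside the genes were read by class. The 1 kb bins of the members outside starts were compared in sham, and for each gene and class the bin with the largest excess gave 1 window of 300 bases, 101 windows in all, each outside annotated exons, and all but 1, which lay past the end of Hcn2, intronic. Sham values chose the windows and are a description. Taking the bin with the largest excess favours ratios above that of the whole gene, so the size of both was not compared. In stroke, which was not used to choose them, 70 of the 82 bins with enough fragments were at least 1.5-fold higher in the same class (85.4%), against 16% of 25685 pairs of a bin and a class. The median ratio was 4.06 in sham and 2.87 in stroke, and 0.539 in stroke over all pairs, which had no minimum on the fragments of the class. The picked bins needed at least 10 class fragments in sham. All pairs also take in oligodendrocyte-like, myeloid-like and vascular-like nuclei, for which no picked bin was compared. The 16% and the 0.539 are therefore not from pairs like the picked ones. In stroke the bins of upper-layer-like nuclei passed the fold in 18 of 18, those of spiny projection neuron-like nuclei in 17 of 19, those of astrocyte-like nuclei in 9 of 10 and those of deep-layer-like nuclei in 10 of 15. Of the 101 windows of 300 bases themselves, 17 had a stroke ratio below 1, each from at most 10 fragments of the class, and 62 had a stroke interval above 1.

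A few of these windows, chosen after their values were seen so that several classes are covered, are shown as GRCm38 (mm10) reference sequence, 5′ to 3′ on the gene's strand, with letters of the searched motifs TGANTCA and CCAAT in capitals. They are an intron window of Cacna1d at chr14:30218046-30218345 and one of Kcnma1 at chr14:23848602-23848901, both picked for astrocyte-like nuclei and both on the minus strand. For spiny projection neuron-like nuclei they are windows of Kcnq3 at chr15:66255343-66255642 and Kcnq5 at chr1:21563433-21563732, both on the minus strand. For upper-layer-like nuclei it is a window of Kcnh1 at chr1:192295474-192295773 (plus strand), and for Lhx6 interneuron-like nuclei one of Cacna1a at chr8:84404590-84404889 (plus strand).
Cacna1d, astrocyte: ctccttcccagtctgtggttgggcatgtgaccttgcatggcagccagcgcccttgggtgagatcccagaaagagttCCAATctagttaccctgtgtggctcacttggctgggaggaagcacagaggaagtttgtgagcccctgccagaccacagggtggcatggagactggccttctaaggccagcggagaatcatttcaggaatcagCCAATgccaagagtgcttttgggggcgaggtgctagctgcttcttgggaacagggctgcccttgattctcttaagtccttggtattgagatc
Kcnma1, astrocyte: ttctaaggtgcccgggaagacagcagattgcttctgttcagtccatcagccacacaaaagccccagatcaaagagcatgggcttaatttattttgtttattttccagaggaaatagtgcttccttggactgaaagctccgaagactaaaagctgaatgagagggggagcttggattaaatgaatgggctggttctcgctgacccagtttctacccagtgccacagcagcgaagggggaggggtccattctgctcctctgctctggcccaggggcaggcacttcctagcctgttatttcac
Kcnq3, spiny projection: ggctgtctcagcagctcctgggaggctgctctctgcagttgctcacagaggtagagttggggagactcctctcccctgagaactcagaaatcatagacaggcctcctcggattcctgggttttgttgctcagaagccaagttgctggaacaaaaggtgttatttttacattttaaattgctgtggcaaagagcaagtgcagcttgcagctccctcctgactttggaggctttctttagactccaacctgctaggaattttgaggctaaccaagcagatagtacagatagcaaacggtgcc
Kcnq5, spiny projection: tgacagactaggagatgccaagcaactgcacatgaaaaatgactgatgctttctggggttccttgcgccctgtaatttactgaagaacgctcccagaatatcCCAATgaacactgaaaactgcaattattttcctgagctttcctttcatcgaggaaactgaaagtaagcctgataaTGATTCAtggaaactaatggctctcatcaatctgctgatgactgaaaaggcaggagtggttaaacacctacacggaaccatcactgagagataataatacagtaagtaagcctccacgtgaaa
Kcnh1, upper layer: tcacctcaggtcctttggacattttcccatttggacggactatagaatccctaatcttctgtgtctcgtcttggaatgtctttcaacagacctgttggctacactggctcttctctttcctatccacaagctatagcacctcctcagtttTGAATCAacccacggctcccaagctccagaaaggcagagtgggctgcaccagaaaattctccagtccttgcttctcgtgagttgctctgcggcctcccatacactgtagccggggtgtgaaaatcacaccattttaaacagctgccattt
Cacna1a, Lhx6 interneuron: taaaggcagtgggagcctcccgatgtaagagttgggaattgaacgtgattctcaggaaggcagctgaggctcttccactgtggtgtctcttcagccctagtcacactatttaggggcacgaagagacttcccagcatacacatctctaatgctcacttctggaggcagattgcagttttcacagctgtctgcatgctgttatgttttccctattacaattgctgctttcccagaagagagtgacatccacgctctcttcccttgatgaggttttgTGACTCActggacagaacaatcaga
TGANTCA, the letters bound by AP-1 factors, was in 15 of the 101 windows and in 6.75% of the shorter RefSeq promoters, whose length differs, CCAAT was in 32, TATAAA in 10, GGGCGG in 8, GGACAGC in 7, TCAGCACC in 2 and TGACGTCA in 0.

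The Cacna1d window lay 273 kb inside the gene. It had 24.5 CPM in sham astrocyte-like nuclei against 0.401 in the other 6 classes, from 66 and 22 fragments, a ratio of 61.3 [37.3 to 104]. In stroke it had 18.6 against 1.25 CPM, a ratio of 14.8 [10.4 to 21.3]. Over the whole Cacna1d locus the astrocyte-like nuclei were lower than the rest, at 0.713 and 0.725, so this gene held a stretch open mainly in astrocyte-like nuclei inside a locus more open in neurons. The Kcnma1 window had 15.6 against 0.692 CPM in sham (22.6 [14.2 to 36]) and 10.7 against 0.922 in stroke (11.6 [7.52 to 18.2]).

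The neuronal windows were compared with the other neuron subclasses. The Kcnq3 window had 9.26 CPM in sham spiny projection neuron-like nuclei against 0.667 (13.9 [8.63 to 23.3]) and 5.17 against 0.571 in stroke (9.05 [4.27 to 20.5]). In the same gene a window 86 kb inside was picked for upper-layer-like nuclei, with 4.7 against 0.451 CPM in sham and 6.83 against 0.409 in stroke (16.7 [6.86 to 52.8]), so that different subclasses had different open stretches in one gene. The Kcnq5 window had 5.2 against 0.303 CPM in sham and 5.17 against 0.467 in stroke (11.1 [4.97 to 27.1]). The Kcnh1 window had 6.26 against 0.496 CPM in sham upper-layer-like nuclei and 4.1 against 0.737 in stroke (5.56 [2.7 to 12.9]). The Cacna1a window, 16 kb inside and before the most accessible start, had 3.44 against 0.267 CPM in sham Lhx6 nuclei and 3.8 against 0.523 in stroke, from 11 fragments in each group (7.26 [2.85 to 18.5]).

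**Figure D4:**
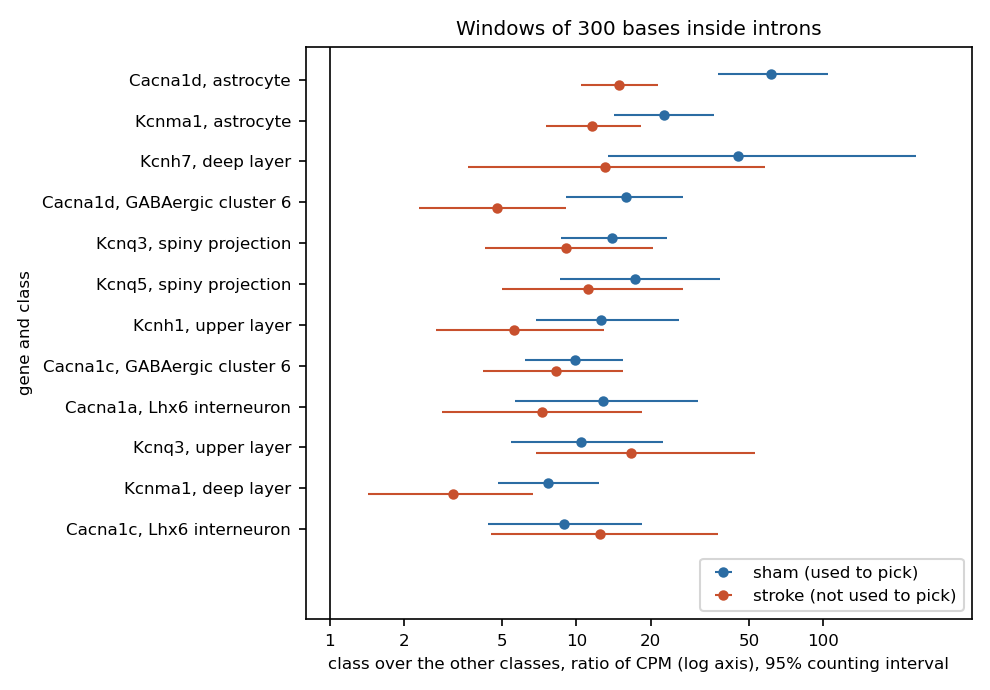
Ratio of CPM in a class over the classes it was compared with, on a log axis, for 12 intron windows of 300 bases, in sham (blue), whose values picked the windows, and in stroke (orange), with 95% counting intervals. The 12 are, for each class, the 2 windows with the highest lower bounds in sham among those with at least 15 fragments of the class, and their stroke ratios run from 3.17 (Kcnma1, deep layer) to 16.7 (Kcnq3, upper layer).

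In some members the most open bins lay far from the start or at the start of a neighbour. In Cacna1a the bin 251 to 252 kb from the start, at the end of the gene, had 21 CPM in sham and 17.1 in stroke, and in Kcnq3 the bin 47 to 48 kb inside had 16 and 12. The highest bin of Cacna1d, at 11 to 12 kb with 14.1 and 13.6 CPM, holds the start of Dcp1a, an mRNA decapping gene, and 4.87% and 5.15% of the fragments counted for Cacna1d lay within 1 kb of that start. In Cacna1c the start of Dcp1b lay 21.2 kb inside and took 2.3% and 2.15%.

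Between the libraries the members differed less than between cell types. Over all kept nuclei, 1 of 28 members was higher in stroke than in sham, the median log2 ratio was -0.25 against -0.04 for all genes, and 0 members were past 1.5-fold either way, where 8.99% of all genes were higher and 0.299% lower. With all called barcodes, which bring back the stroke barcodes with few fragments in peaks, 11 of 28 members were at least 1.5-fold lower and 0 higher, where 17.9% of all genes were lower and 20% higher. Fewer neuronal nuclei and less opening per nucleus cannot be told apart in this sum, and glutamatergic-like nuclei were 2903 in sham and 1709 in stroke, myeloid-like ones 36 and 339.

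In the glutamatergic-like and GABAergic-like clusters as a whole, 0 of 28 members were past 1.5-fold in either direction. In glutamatergic-like nuclei 3.96% of all genes were higher by that fold and 0.716% lower, and in GABAergic-like nuclei 3.33% and 1.59%. The members' ratios of stroke over sham ran from 0.813 to 1.09 in glutamatergic-like nuclei, where 14 counting intervals lay below 1 and 3 above, and from 0.769 to 1.1 in GABAergic-like nuclei, where 12 lay below and 1 above. The median log2 ratio of the members was -0.11 in both classes and that of all genes -0.05. With scaling to promoter fragments it was 0.11 in glutamatergic-like nuclei against 0.17 for all genes, and 0.01 against 0.07 in GABAergic-like nuclei, so the members stayed below all genes while their sign changed with the scaling. The median percent of fragments in peaks was 41.4 in sham and 34.1 in stroke glutamatergic-like nuclei and 35.2 and 30.4 in GABAergic-like ones, and its part in these ratios was not tested. The mix of clusters within both classes also differed between the libraries. In the glutamatergic-like class 1 cluster held 680 sham and 47 stroke nuclei and another 61 and 366. Cluster 6 held 333 of 1557 sham and 269 of 936 stroke GABAergic-like nuclei. Such a mix and the opening per nucleus cannot be told apart in the ratios of a whole class.

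**Figure D5:**
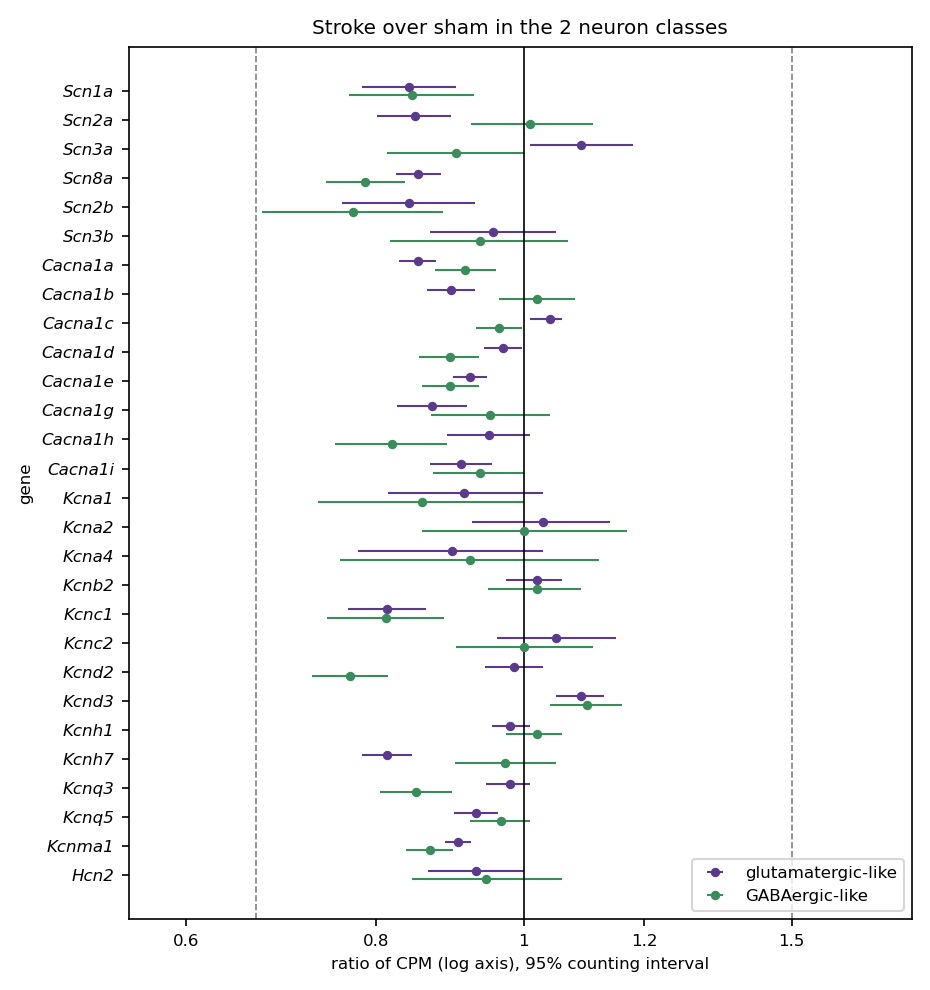
Ratio of CPM in stroke over sham for each member in glutamatergic-like (purple) and GABAergic-like (green) clusters, on a log axis, with 95% counting intervals; the dashed lines mark 1.5-fold either way. Every point lies between the dashed lines, from 0.769 for Kcnd2 in GABAergic-like nuclei to 1.1 for Kcnd3 there.

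Kcnc1 and Kcnh7 were the lowest in glutamatergic-like nuclei. Kcnc1 was at 97.4 CPM in sham and 79.1 in stroke (0.813 [0.767 to 0.862]), and it was as low in GABAergic-like nuclei, at 102 and 82.6 CPM (0.812 [0.743 to 0.887]). Kcnh7 was at 234 and 190 CPM in glutamatergic-like nuclei (0.813 [0.783 to 0.845]) and at 120 and 117 in GABAergic-like ones (0.972 [0.901 to 1.05]). Scn8a was lower in both classes, at 272 and 232 CPM (0.852 [0.824 to 0.882]) and at 231 and 182 (0.787 [0.742 to 0.835]). Kcnd2 had the lowest ratio in GABAergic-like nuclei, at 250 CPM in sham and 193 in stroke (0.769 [0.726 to 0.814]), and within them it was at 305 and 211 in the spiny projection neuron-like cluster (0.692 [0.643 to 0.744]). In glutamatergic-like nuclei Kcnd2 was at 159 and 156 CPM. Kcnd3 was the member whose counting interval lay above 1 in both, at 222 and 242 CPM (1.09 [1.05 to 1.13]) and at 191 and 210 (1.1 [1.04 to 1.16]). Some subclasses had members past the fold. In deep-layer-like nuclei Cacna1g was at 108 CPM in sham and 63.7 in stroke (0.589 [0.503 to 0.688]) from 593 and 224 fragments, and Kcnc2 at 17.5 and 29.3 (1.67 [1.25 to 2.23]) from 96 and 103, so that 1 member was lower and 1 higher, where 6.01% of all genes were lower and 4.88% higher. In cluster 6 Cacna1h was at 107 and 57.3 CPM (0.535 [0.399 to 0.71]), Scn8a at 159 and 104 (0.655 [0.525 to 0.813]) and Scn1a at 56.8 and 91.2 (1.61 [1.21 to 2.12]), so that 2 of 27 compared were lower and 1 higher, where 11.1% of all genes were lower and 4.53% higher. In the upper-layer-like, spiny projection neuron-like and Lhx6 interneuron-like nuclei 0 of 28 were past the fold, where 1.37%, 3.5% and 4.9% of all genes were lower and 3.98%, 4.79% and 2.87% higher. Whether these ratios differ from 1 beyond the spread between brains cannot be read from 1 library per condition.

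The gate gave wider ratios from fewer fragments. In its glutamatergic-like nuclei 1 member was past 1.5-fold higher, Kcna1, at 17.4 CPM in sham and 33.8 in stroke (1.95 [1.3 to 2.89]) from 60 and 48 fragments. There 2 members were lower, Scn1a, at 66.9 and 42.3 CPM (0.632 [0.468 to 0.843]), and Kcna4, at 18.8 and 7.75 (0.412 [0.196 to 0.787]) from 65 and 11 fragments, and 5.6% of all genes were higher and 10.1% lower. In its GABAergic-like nuclei Scn1a was lower, at 94.3 and 59.9 CPM (0.635 [0.501 to 0.799]), and 0 members were higher, where 6.21% of all genes were lower and 5.37% higher. In the clusters Scn1a was at 64 and 53.8 CPM in glutamatergic-like nuclei and at 86.5 and 73 in GABAergic-like ones, lower in stroke in each but not past the fold, and Kcna1 was at 23.5 and 21.5, no longer higher. Kcna4 was at 15.8 and 14.2 CPM in the clustered glutamatergic-like nuclei (0.897 [0.778 to 1.03]), and with promoter scaling its log2 ratio there was 0.06.

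The other classes held fewer fragments. The share of all genes past the fold between stroke and sham was not computed for them, so the extremes below have no background. The astrocyte-like nuclei also came mainly from different clusters in the libraries, as given above. In OPC-like nuclei Kcnh7 was at 64.7 CPM in sham and 113 in stroke (1.75 [1.25 to 2.5]), from 48 and 125 fragments. On a fold scale the widest spread was in oligodendrocyte-like nuclei, where the members ran from 0.338 for Cacna1i to 1.65 for Kcnc1. In astrocyte-like nuclei they ran from 0.602 for Cacna1i to 1.24 for Cacna1e, in myeloid-like nuclei from 0.394 for Scn2b to 1.66 for Cacna1h, and in vascular-like nuclei, where 18 members had enough fragments, from 0.667 for Cacna1g to 2.2 for Cacna1i. The T-type gene Cacna1i was the lowest of the members compared in astrocyte-like nuclei (0.602 [0.496 to 0.73], from 201 sham and 235 stroke fragments), in oligodendrocyte-like nuclei (0.338 [0.201 to 0.559], from 43 and 27) and in OPC-like nuclei (0.547 [0.366 to 0.815], from 59 and 48). Its ratio of 2.2 [1.06 to 5.1] in vascular-like nuclei rests on 9 and 47 fragments.

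A list of 71 other channel genes gave a less marked neuronal lead in the clusters. There 38 of 71 were at least 1.5-fold higher in neurons in sham and 34 in stroke, beside 16.7% and 13.2% of all genes. In each library 5 were lower, beside 19.1% and 18.1% of all genes. In the gate 8 of 70 compared (11.4%) were higher in sham, against 7.14% of the members, and 30 of 70 (42.9%) in stroke, against 53.6%. The difference between the lists was not tested. The other calcium channel subunits had 9 of 13 higher in sham clusters and 10 of 13 in stroke. The group listed as other Kv subunits, which also holds the calcium-activated channel gene Kcnn1, had 14 of 28 in each library. The Kv auxiliary subunits had 7 and 6 of 12, and the other sodium channel subunits 6 of 9 in sham but 2 of 9 in stroke. Cacng3, an AMPA receptor auxiliary gene of the calcium channel gamma family, was at 125 CPM in sham neurons against 33.4 elsewhere and at 93.7 against 35.2 in stroke. Kcnj10 and Kcnj16 went the other way. Kcnj10, the Kir4.1 gene of potassium buffering by astrocytes, was at 24.5 CPM in sham neurons against 154 in the other classes (0.159 [0.145 to 0.174]) and at 24.6 against 107 in stroke (0.23 [0.21 to 0.251]), and Kcnj16 was at 7.31 against 26.3 and 6.93 against 21.5. Of the 6 glial inward rectifier and leak channel genes listed 0 were higher in neurons, 2 were lower in sham and 3 in stroke, and their median neuron ratio was 1.09 in sham and 0.682 in stroke. In the gate, genes of this list past 1.5-fold between stroke and sham included Kcnd1, higher in stroke, and Scn4a, Cacng3, Kcns2, Kcnn1 and Kcnk6, lower, in glutamatergic-like nuclei, where the intervals of Scn4a and Kcnk6 included 1. In GABAergic-like nuclei 1 was higher, Kcnc4 (1.94 [1.42 to 2.66]), and 7 were lower (Scn4b, Scn9a, Scn11a, Kcnf1, Kcng1, Kcng4 and Kcnk1), of which Kcnf1 and Kcng4 had intervals that included 1, beside the 5.37% and 6.21% of all genes given above. In the clusters 1 of these named genes was past the fold in the same class, Kcng4, a silent Kv subunit gene, at 0.663, while Cacng3 was at 0.701 in glutamatergic-like and Kcnc4 at 1.47 in GABAergic-like nuclei.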

How the data were processed

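scATAC-seq was made from 1 sham and 1 stroke library, each of 4 pooled brains. The labels list Cell Ranger ATAC 2.1.0 and, without a version, Cell Ranger ARC, and the genome build mm10. The authors' paper names Cell Ranger ATAC 2.1.0 as the tool and ARC only within the name of its reference package. The deposited values are raw counts without normalization: a list of deduplicated fragments with barcodes and read-pair counts, and, per barcode, counts of fragments passing filters and in peaks. The ends of the fragments lie at the Tn5 cut sites.

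Barcodes called as cells by the authors were kept where over 20% of fragments lay in peaks. Fragments overlapping a gene body of GENCODE M21 or the 2000 bases before it were counted and scaled to CPM. Genes with at least 50 fragments over the groups compared were used, and 1.5-fold counted as a call. With 1 library per condition no p-value was computed, and the depth of each group sets the width of the exact 95% intervals. The libraries shared 42 barcodes, which were kept, and no doublets were removed.

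The gate gave a nucleus a class where its fragments over that class's marker genes exceeded a Poisson mean with p under 0.001 and at least 3 fragments, and p was over 0.01 for every other class. The clusters, added after the data had been seen along with their naming limits, used 100000 tiles of 5000 bases, 29 components, 20 neighbours and Leiden at a resolution of 1.5. A cluster was named where it had at least 3 detected markers, a marker score of at least 0.3 and, on the markers not used by the gate, of at least 0.1, and where its leading genes did not go against the name; 12 of 28 clusters stayed unnamed. Clusters of shallow nuclei without their own markers among the leading genes, and a cluster high for the ciliated-cell gene Foxj1, stayed unnamed too and are among these. This kept cluster 16, with astrocyte markers (220 sham and 67 stroke nuclei), and the ciliated cluster 23 (89 and 25) out of the astrocyte-like class, which held 182 and 525. Subclass names needed a score of at least 0.2 and 3 detected markers, with no check on further markers or leading genes. Cluster 6, which passed as an interneuron subclass but was led by Lgr5, Vipr2, Gng4 and Th, is called by its number, whereas the upper-layer-like clusters 5 and 10, which also had no marker of their subclass among the 8 leading genes, keep the name.

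Positions were read in bins of 1000 bases. Windows were picked in sham from bins with at least 10 fragments of the class, and their bins were compared in stroke where the bin had at least 20 fragments over both groups. Motifs were searched on both strands. Python 3.11.15, numpy 2.4.6, scipy 1.17.1, pandas 2.3.3, leidenalg 0.10.2, igraph 0.11.9 and pysam 0.24.0 were used, and the ratio counts were tested on simulated data. The alternatives were the promoter window, cut ends in place of fragments, scaling to promoter fragments, other barcode filters, other gates, a 2-fold limit and the clusters.

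All members are named. The members and the gene and marker lists were chosen with earlier results of these data known. Of 71 other channel genes, the 5 with the highest and the 5 with the lowest neuron ratio in the gate, in the weaker of both libraries, were to be named, with those past 1.5-fold between stroke and sham, of which 1 gene is not reported here. The highest were Scn4b, Cacnb2, Kcns2, Kcnf1 and Cacng3 and the lowest Kcnj10, Kcnj16, Kcng4, Scn4a and Kcnh8. For each class, the member with the highest ratio, in the library where it is lower, is named. Protein sequences were not analysed here.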

Additional observations from a re-analysis of the deposited data

Results flagged for a closer look

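The L-type genes Cacna1d and Cacna1c stood on opposite sides of 1 in the neuron classes when stroke was set against sham, with counting intervals that did not reach 1. In the gate Cacna1d was at 1.16 [1.05 to 1.29] in glutamatergic-like and at 0.802 [0.721 to 0.891] in GABAergic-like nuclei. In the clusters it was below 1 in both. There Cacna1c was at 1.04 [1.01 to 1.06] in glutamatergic-like and at 0.964 [0.931 to 0.997] in GABAergic-like nuclei, a difference of a few percent. Neither difference between classes was tested, since each class had 1 library per condition.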

How the results depend on the processing

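The count of members at least 1.5-fold higher in neurons depended on the setting. In sham it was 2 of 28 in the gate, 5 of 22 compared in the promoter window (3.77% of all genes), 5 with promoter scaling (6.31%), 7 with a gate p under 1e-05 (5.98%), 0 at 2-fold (0.323%), 23 in the clusters (16.7%) and 27 in the clusters with promoter scaling (33.6%). In stroke it was 15 of 28 in the gate (9.13% of all genes), 8 of 17 compared in the promoter window (7.54%), 9 among nuclei with 30 to 50% of fragments in peaks (7.8%), 4 at 2-fold (1.84%), 21 in the clusters (13.2%) and 26 in the clusters with promoter scaling (26%). Between stroke and sham, the 1 glutamatergic-like member that was higher became 0 in the promoter window, 2 at 30 to 50% in peaks (7.43% of all genes), and 0 with the lowest marker p, at 2-fold and in the clusters under both scalings. The 2 that were lower became 4 of 8 compared in the promoter window (17.6% of all genes), 1 with promoter scaling (5.24%), 0 with all called barcodes (8.19%), 1 with the lowest marker p (7.74%), 1 at 2-fold (1.92%) and 0 in the clusters under both scalings. The 1 GABAergic-like member that was lower became 0 with all called barcodes (6% of all genes), 4 at 30 to 50% in peaks (9.26%), 2 with the lowest marker p (5.42%), and 0 at 2-fold and in the clusters under both scalings. Over all nuclei the 0 lower members became 1 in the promoter window (1.32% of all genes) and 11 with all called barcodes, which bring back 3686 stroke barcodes and with which 17.9% of all genes were lower and 20% higher, against 0.299% and 8.99%. Another 57 counts stayed within 1.5 times. For single members 153 values stayed the same, 72 moved and 3 changed direction, namely the log2 ratio of Kcna2 in stroke neurons (-0.66 to 0.16 in the promoter window), that of Kcna1 between stroke and sham in glutamatergic-like nuclei (0.96 to -0.13 in the clusters) and that of Kcna4 there (-1.28 to 0.06 in the clusters with promoter scaling). The cause of these changes was not tested. The clusters were chosen after seeing the data. No paired analysis was possible because there was only 1 library per condition, and for the same reason no replicate could be left out.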
